A study of Mus musculus with 7 samples.

Results

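H3K9me3 peaks at the promoters of protein-coding genes were examined in immortalised mouse embryonic fibroblasts (iMEFs) with and without Setdb1. A promoter was taken to begin 2 kb before a transcript start of a protein-coding gene and to end 0.5 kb after it, with starts from the GENCODE M1 annotation of mm9. A peak of chromosomes 1 to 19 that shared at least 1 bp with such a window was a member. By this rule 724 of the 26965 peaks of both lists were members. They comprised 559 of the 23190 WT peaks and 165 of the 3775 KO peaks. Among the peaks of chromosomes 1 to 19, promoter peaks made up 2.55% of the WT list (559 of 21957, 95% Wilson interval 2.35 to 2.76%) and 4.5% of the KO list (165 of 3668, interval 3.87 to 5.22%). The windows belonged to 21418 genes and covered 3.90% of the sequenced bases.

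The series holds 7 samples, of which the H3K9me3 libraries of Setdb1 cKO iMEFs without treatment (WT) and with 4OHT (KO) were used here. Both came from a conditional knockout line, for which the study's methods describe single-cell recloning, so WT denotes cells that still carry the conditional Setdb1 alleles. In KO, 4-hydroxytamoxifen (4OHT) was given for 4 days to delete Setdb1, and the cells were harvested on day 7. Chromatin was digested with micrococcal nuclease and precipitated with a polyclonal antibody to H3K9me3. With 1 library on each side there is no replicate error to set a difference against, so no p-value was computed, and intervals cover counting error only. The untreated and treated cells also differed in exposure to 4OHT, which cannot be told apart from the loss of Setdb1 here.

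Trimethylation of lysine 9 of histone H3 (H3K9me3) marks heterochromatin, the compact and mostly silent part of the genome. Setdb1 is a methyltransferase that places this mark. It is brought to DNA by the corepressor Trim28 and by KRAB zinc-finger proteins, which bind DNA and mostly recognise transposable elements. Other enzymes, Suv39h1 and Suv39h2, place the mark over the satellite repeats beside centromeres. Promoters of active genes usually carry little H3K9me3, whereas zinc-finger gene clusters, some germline genes and some imprinted genes are known to carry it.

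The sequences under 7 promoter peaks are examples of the DNA that the members cover. They were picked by gene, among narrow peaks that touched no untranslated exon part. Within a gene the choice could follow CG content or sharing, so they are not a representative sample. All are mm9 sequence read 5′ to 3′ on the strand of the nearest start. In the next 5, capitals mark CG dinucleotides, the sites of DNA methylation in mammals. Otx2 and Lhx1, homeobox genes of the developing head, had CG-containing WT peaks that no KO peak overlapped. The printed peaks hold 5 CG sites each, in 96 and 78 bases. The median of all WT promoter peaks, 0.976 sites per 100 bp, is given for scale only, since the printed peaks were selected.
Otx2, WT, chr14:49281953-49282048, minus strand: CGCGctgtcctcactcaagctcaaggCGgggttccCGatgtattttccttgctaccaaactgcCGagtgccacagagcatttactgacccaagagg
Lhx1, WT, chr11:84340044-84340121, minus strand: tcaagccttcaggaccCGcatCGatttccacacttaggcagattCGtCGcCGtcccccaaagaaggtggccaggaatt
Upstream of Wt1, a zinc-finger regulator of kidney and gonad, and of Neurod1, a factor of neurons and endocrine cells, a KO peak overlapped a WT peak. The Neurod1 window here is shared with the start of Cerkl, its neighbour.
Wt1, KO, chr2:104965085-104965308, plus strand: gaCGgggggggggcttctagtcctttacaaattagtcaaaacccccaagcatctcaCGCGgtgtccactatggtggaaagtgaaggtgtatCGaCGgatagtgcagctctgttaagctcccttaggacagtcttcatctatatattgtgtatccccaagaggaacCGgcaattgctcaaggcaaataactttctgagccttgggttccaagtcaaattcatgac
Neurod1 and Cerkl, KO, chr2:79297654-79297853, minus strand: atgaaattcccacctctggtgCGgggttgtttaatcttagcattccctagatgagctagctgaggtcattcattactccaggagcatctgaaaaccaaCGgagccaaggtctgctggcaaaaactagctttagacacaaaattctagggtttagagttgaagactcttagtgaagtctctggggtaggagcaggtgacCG
Zfp960 stands for the zinc-finger genes named Zfp, Zkscan, Zscan or Zik, whose WT peaks held few CG sites.
Zfp960, WT, chr17:17219963-17220185, plus strand: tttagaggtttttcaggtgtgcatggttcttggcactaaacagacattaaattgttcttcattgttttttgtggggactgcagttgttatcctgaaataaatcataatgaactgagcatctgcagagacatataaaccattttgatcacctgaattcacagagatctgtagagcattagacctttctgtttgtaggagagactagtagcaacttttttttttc
Litaf and Oasl1 had tall peaks in both lists and show the sequence that these shared. In these the capitals mark a run of 19 bases, GTAGGACCTGGAATATGGC on either strand, that both peaks hold.
Litaf, WT, chr16:10975194-10975387, minus strand: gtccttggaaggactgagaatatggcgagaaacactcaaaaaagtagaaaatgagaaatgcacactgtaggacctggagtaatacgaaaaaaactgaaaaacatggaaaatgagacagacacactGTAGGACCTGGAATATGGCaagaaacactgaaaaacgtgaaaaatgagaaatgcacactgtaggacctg
Oasl1, WT, chr5:115372485-115372617, plus strand: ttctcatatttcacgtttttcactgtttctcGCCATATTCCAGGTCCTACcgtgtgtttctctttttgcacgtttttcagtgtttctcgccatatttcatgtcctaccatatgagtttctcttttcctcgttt

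Promoter peaks were fewer in KO, but the fall was smaller than elsewhere. KO promoter peaks numbered 29.5% of the WT ones (interval 24.8 to 35.1%), against 16.4% (15.8 to 17.0%) for the 21398 WT and 3503 KO peaks outside promoters. At the gene level, 398 of the 21418 genes had a WT promoter peak (1.86%), 116 had a KO promoter peak (0.542%) and 50 had both (0.233%). Thus 348 genes had a peak only in WT and 66 only in KO. In the WT list, 285 genes had a single promoter peak, 68 had 2 and 29 had 3, and 16 had 4 or more. The share of genes with a WT peak was highest on chromosome 10 (45 of 1045 genes, 4.31%) and lowest on chromosome 7 (13 of 2072, 0.627%). Chromosomes 6 and 18 had 10 and 19 WT promoter peaks and no KO promoter peak.

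The direction of this contrast depended on the copy number of the DNA under the peak, taken as the median number of genomic occurrences of its 31-base words. For peaks of copy number 1, KO peaks numbered 20.4% of WT peaks at promoters (71 against 348, interval 15.8 to 26.3%) and 32.7% elsewhere (31.1 to 34.4%). For peaks of over 10 copies the order was the other way round, with 40.3% at promoters (26.6 to 60.9%) and 5.67% elsewhere (5.25 to 6.13%). Most of these KO promoter peaks lay on chromosome 9 before 4 Mb, and without that stretch the values were 16.4% (9 against 55, interval 8.20 to 32.7%) and 5.58% (5.17 to 6.03%). Single-copy DNA underlay 62.3% of WT promoter peaks and 28.6% of the other WT peaks. DNA of over 1000 copies underlay 3.04% and 34.9%. In KO, no promoter peak lay on DNA of over 1000 copies (0 of 165, which allows a share of up to 1.82%), against 7.51% of the other KO peaks.

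Peaks were sparse at starts. WT peak centres numbered 4.51 per Mb in the 500 bp before the nearest start and 9.17 per Mb over all autosomal sequence. At CpG-rich promoters the WT value fell to 2.11 per Mb in the 500 bp after the start, and at the other promoters it was 7.76 per Mb. In KO, centres were densest from 1 kb to 0.5 kb before the start, at 2.68 per Mb against 1.53 per Mb over all sequence. Of those 46 peaks, 39 had another than a CpG-rich promoter nearest to them. Chromosome 9 before 4 Mb, which held 29 of the 165 KO promoter peaks, is included, and its part in this bin was not counted. The outer edge of the window was not a step in WT. The 500 bp just inside it held 94 WT centres (6.21 per Mb), and the 500 bp just outside held 93 (6.46 per Mb). In KO these bins held 20 and 18. A WT promoter peak covered a transcript start in 60 of 559 cases and a KO one in 10 of 165. Of the WT promoter peaks, 50.1% lay outside protein-coding genes, 25% in introns, 18.6% touched a coding exon and 5.90% only an untranslated exon part.

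**Figure D1:**
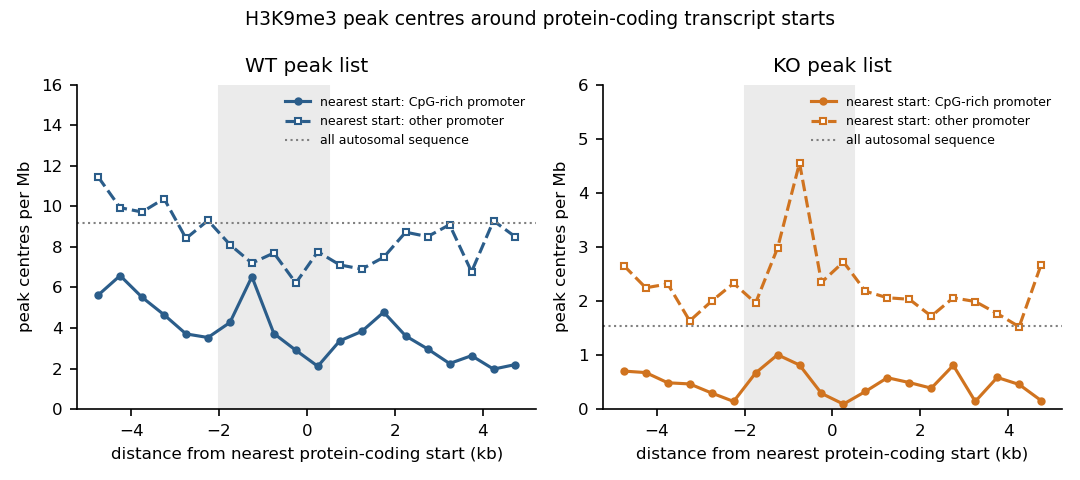
Peak centres per Mb of sequence (y axis) in bins of 500 bp by distance from the nearest protein-coding start (x axis, kb), for the WT and KO lists, split by whether that start had a CpG-rich promoter. The shaded part is the promoter window and the dotted line the density over all autosomal sequence (9.17 per Mb in WT, 1.53 in KO); over the 5 kb plotted on each side every point of CpG-rich starts lies below it, and the KO curve of the other starts peaks at 4.55 per Mb from 1 kb to 0.5 kb upstream.

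Promoter peaks were wider than the others. The median width was 187 bp against 135 bp in WT and 116 bp against 83 bp in KO, and they covered 184 kb in WT and 28.6 kb in KO. Most were low. The pileup, the number of fragments stacked at the summit, had a median of 10 in WT and 11 in KO, and its lowest value of 9 was that of 184 WT and 44 KO promoter peaks. The score, which is −log10 of the q-value, had a median of 3.15 in WT and 2.96 in KO. The upper quartile of the WT score was 4.27.

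Peaks at promoters of CpG-rich type were the scarcer ones in both lists. A promoter was called CpG-rich when the 1-kb stretch around the outermost start of the gene had a CpG observed-to-expected ratio of at least 0.6 and a GC content of at least 50%. Such promoters belonged to 45.1% of all genes, but to 33.4% of the genes with a WT promoter peak (29.0 to 38.2%) and 19.8% of those with a KO promoter peak (13.6 to 28.0%). Genes with CpG-rich promoters went from 133 in WT to 23 in KO (17.3%, interval 11.1 to 26.8%). The other genes went from 265 to 93 (35.1%, 27.7 to 44.4%).

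Regulators of embryonic development formed a prominent group of WT promoter genes. This group, families of homeobox, Sox, Fox, Zic, basic helix-loop-helix and similar genes, was put together after the gene names had been seen, so its share is a description only. Of its 307 annotated genes, 52 had a WT promoter peak (16.9%, 13.2 to 21.5%, against 1.86% of all genes). A KO promoter peak was found at 8 (2.61%, 1.33 to 5.06%, against 0.542% of all genes), and 5 had both (against 0.233% of all genes). The count of 52 holds 51 symbols, since the annotation lists Alx1 under 2 gene records. All 87 WT peaks of these genes lay on single-copy DNA, where 348 of all 559 WT promoter peaks did. Their median CG content was 2.78 sites per 100 bp, against 0.976 for all WT promoter peaks and 2.07 over all promoter windows. All were low. Their pileups ran from 9 to 18 with a median of 10, their scores from 2.39 to 6.37, and at a pileup of at least 15 only 1 of the 52 genes was left. Of the 87 peaks, 2 shared a base with a KO peak, and of all 348 single-copy WT promoter peaks 10 did (2.87%).

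Zic1 and Zic4, neighbouring genes for zinc-finger factors of the dorsal nervous system, had the most WT promoter peaks of all genes. Zic1 had 8 and Zic4 had 7, and peaks that fell in the windows of both are counted for each. The Zic1 peaks had pileups of 9 to 12, and the peak over its start had a pileup of 12, a fold enrichment of 6.02 and a score of 5.13. The highest Zic4 peak, which covered a start, had a pileup of 13 and a score of 5.46. In KO, Zic1 had no promoter peak and Zic4 had 1, with a pileup of 10 and a score of 3.88. This KO peak shared no base with a WT peak and lay 193 bp from the nearest.

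Wt1 had 4 WT promoter peaks and Neurod1 had 5. The tallest at Wt1 covered a start, with a pileup of 14 and a score of 6.37, the highest score of the group. The Wt1 peak farther upstream, with a pileup of 10 and a score of 3.45, shared 171 bp with a KO peak of pileup 9 and score 2.96. At Neurod1 and Cerkl, where Cerkl encodes a ceramide kinase-like protein, all 5 WT peaks fell in the windows of both genes, with pileups of 9 to 12. The KO peak there had a pileup of 13 and a score of 3.52, and all its 200 bp lay within a WT peak of pileup 10 and score 3.27. These were the only peaks of the group in which both lists shared bases.

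Pax6, the homeobox gene of eye and forebrain, had WT peaks of pileup 9 and 10 and a KO peak of pileup 10, and these lay 6381 bp apart. Sox14, a factor of neurons, had WT peaks of pileup 9 and a KO peak of pileup 10 at a gap of 197 bp. Lhx1 followed Wt1 in score, at 6.30 with a pileup of 14, from a peak next to the one printed above. Scores of 5.13 were given to the highest peaks of Tcfap2c, Sall1, Sall4 and Nkx6-2, and 5.10 to that of Mnx1, the motor neuron homeobox gene. Otx2 had a score of 3.45 and Sox17, an endoderm factor, 3.05. Ferd3l, a basic helix-loop-helix gene, and Hoxd1 had a peak in KO and none in WT, with pileups of 10 and 9 and scores of 2.87 and 2.51. Among the 40 Hox genes, the axial patterning genes, Hoxd3, Hoxd4 and Hoxd11 had WT peaks and Hoxd1 had a KO peak. Every Hox gene with a promoter peak was thus in the Hoxd cluster. The Hox shares were 7.5% in WT (2.58 to 19.9%) and 2.5% in KO (0.443 to 12.9%), against 1.86% and 0.542% of all genes.

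**Figure D2:**
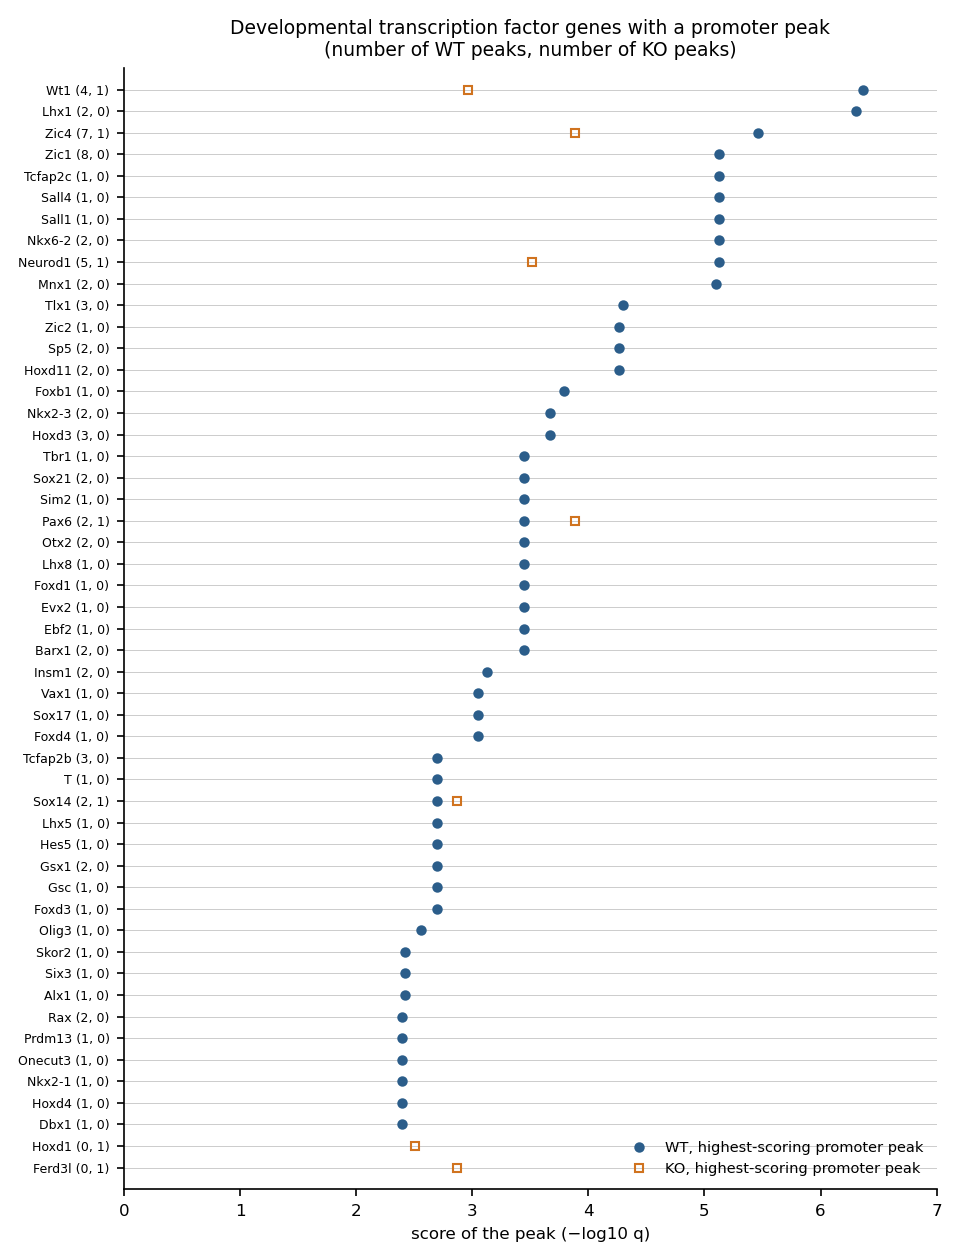
Score (x axis, −log10 q) of the highest promoter peak of the developmental transcription factor genes reported here in WT (filled circles) and KO (open squares), with the numbers of WT and KO peaks in brackets. Most genes have no square, and the scores end at 6.37 (Wt1) in WT and at 3.88 (Pax6, Zic4) in KO.

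Among secreted factors of development, a list also put together afterwards, 4 of 39 Fgf and Wnt genes had WT promoter peaks (10.3%, against 1.86% of all genes). None had a KO promoter peak, which allows up to 7.69% of them, against 0.542% of all genes with a KO peak. The WT genes were Fgf9, with a pileup of 13 and a score of 6.05, Fgf1 (score 3.05), Wnt3 (2.91) and Fgf20 (2.39). Nodal, the ligand of mesendoderm and left-right patterning, had a WT peak of pileup 9. Its DNA occurred a median of 369.5 times in the genome. Aldh1a2, which makes retinoic acid, had 2 WT peaks, the taller with a pileup of 15 and a score of 7.04. Lin28b, which blocks let-7 microRNA maturation, had 2 with scores of 4.27 and 4.60. Slc16a12, a creatine transporter gene, had 4 WT peaks with pileups of 9 to 13 and a top score of 3.67. None of these had a KO promoter peak. Nodal, Aldh1a2 and Lin28b were chosen after their values had been seen.

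Genes for C2H2 zinc-finger proteins, many of them KRAB proteins, were taken by name (Zfp, Zkscan, Zscan or Zik). Zinc-finger genes with other names, such as Wt1 and Zic4, are outside this list and had KO promoter peaks. So are predicted genes near listed ones, such as Gm13051 near Zfp600 on chromosome 4 and Gm10139 on chromosome 13. Both of these had KO peaks that shared bases with WT peaks. Which predicted genes encode zinc fingers was not examined, so the values below hold for the listed names only. The listed genes also had WT promoter peaks more often than genes at large. Of 415 genes, 26 had a WT promoter peak (6.27%, interval 4.31 to 9.02%, against 1.86% of all genes) and 1 had a KO promoter peak (0.241%, 0.0425 to 1.35%, against 0.542%). The 26 genes held 37 WT peaks, none of which shared a base with a KO peak. For comparison, 8.77% of all WT promoter peaks and 2.87% of the single-copy ones did. Of the 37 peaks, 22 lay on single-copy DNA. Their CG content was low, with a median of 0.551 sites per 100 bp. The highest score belonged to Zfp354c, a narrow peak of 115 bp with a pileup of 22, a fold enrichment of 10.6 and a score of 15.9. Its DNA, at chr11:50641869-50641984, occurred a median of 14192 times in the genome. Zfp950 followed with 3 peaks and a top score of 6.77 (pileup 16), then Zfp960 with 6.19 (pileup 14) and Zfp640 and Zfp81 with 5.13 each (pileups 15 and 12). The gene of the list with a KO peak was Zfp936. Its WT peak had a pileup of 10 and a score of 2.91 and its KO peak a pileup of 9 and a score of 2.37, at 1407 bp from it.

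Several genes on chromosomes 4 and 13, most of them predicted genes, had high or many WT peaks. Gm10139 had the highest score of all promoter peaks, 22.0, from a peak of 1478 bp with a pileup of 29 and a fold enrichment of 12.1, and another of its 4 WT peaks scored 14.1. In KO a peak of 64 bp with a pileup of 11 and a score of 4.10 lay within the higher one. Gm10772 had 4 WT peaks with scores up to 11.4 and no KO peak. Gm13051 had a WT peak of 1638 bp with a score of 12.7, and a KO peak of 177 bp with a score of 2.61 inside it. Gm13151 had a WT peak of 3366 bp with a pileup of 23 and a score of 12.2, which shared bases with a KO peak outside the window. Gm13138 had 6 WT peaks and 2 KO peaks, which shared no base, and Rex2 had 4 and 1. At these genes the WT copy numbers ran from 2 to 8, so their reads may belong to near-identical copies elsewhere.

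The study's methods state that a read fitting several places was given to a random one of them. Predicted genes, those named Gm or with a Rik clone name, made up 112 of the 398 WT genes (3.47% of 3232 such genes, against 1.86% of all). They also made up 44 of the 116 KO genes (1.36%, against 0.542%) and 29 of the 50 genes with both, which were 0.233% of all genes. All these counts include the 12 predicted genes at the start of chromosome 9, described below. Other predicted genes with high WT scores were Gm17635 (score 11.9), Gm6020 (11.8) and Gm10222 with Gm10925. The last pair shared the widest promoter peak, 3983 bp with a score of 14.4, and 98.6% of its 31-base words also occurred in the mitochondrial genome. Olfr1357, an olfactory receptor gene, had a WT peak of 2694 bp with a score of 14.0, which shared bases with 2 KO peaks outside the window. Lrg1, a leucine-rich secreted glycoprotein gene, had a WT peak of 1748 bp over its start with a pileup of 19 and a score of 10.4, and none in KO.

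**Figure D3:**
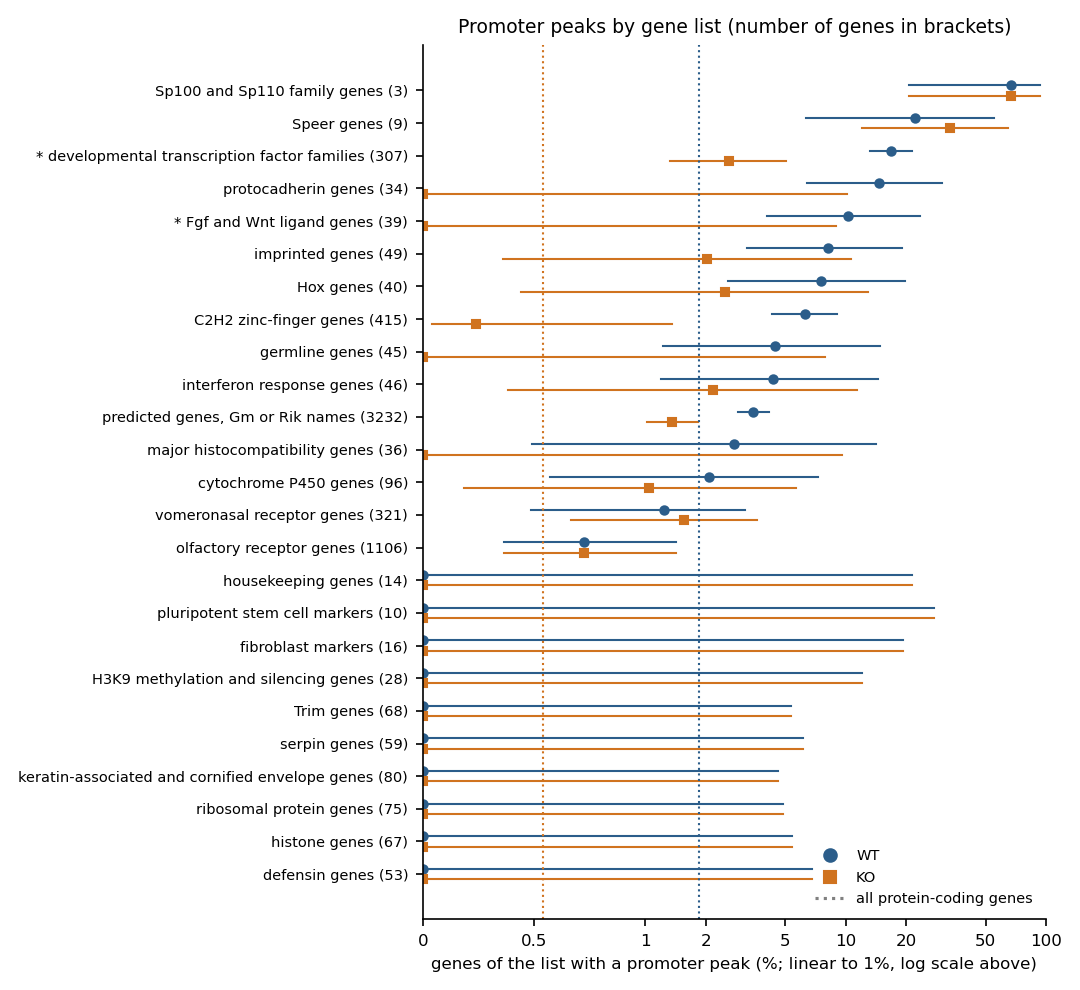
Share of the genes of each list with a promoter peak (x axis, percent, linear to 1% and on a log scale above) in WT (circles) and KO (squares) with 95% Wilson intervals. Dotted lines mark all protein-coding genes (1.86% in WT, 0.542% in KO), and asterisks mark lists put together after the gene names had been seen. For the listed zinc-finger genes the WT interval lies to the right of the dotted WT line. Their KO interval holds the dotted KO line.

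Promoter peaks shared bases between the lists more often than other peaks did. At promoters, 49 of 559 WT peaks had at least 1 bp in common with a KO peak (8.77%, interval 6.69 to 11.4%), against 2.34% of all autosomal WT peaks and 2.17% of those outside promoters. From the KO side the values were 55 of 165 (33.3%, 26.6 to 40.8%), 15.2% and 14.3%. Of these shared peaks, 21 WT and 29 KO ones lay on chromosome 9 before 4 Mb. Without that stretch the shares were 5.25% in WT (28 of 533, 3.66 to 7.49%), against 2.15% of the other WT peaks. In KO, 26 of 136 promoter peaks were then shared (13.4 to 26.5%), against 14.0% of the others (12.9 to 15.2%), and these intervals overlap. Among single-copy peaks, 2.87% of WT promoter peaks (10 of 348, 1.57 to 5.21%) and 2.27% of the other WT peaks (1.92 to 2.67%) were shared, and these intervals overlap.

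The local background, the fragment level that the peak caller set against a peak, moved with sharing. At a background of up to 1.5 fragments, 7 of 404 WT promoter peaks were shared (1.73%), against 0.841% of the others. The shares were 1 of 72 (1.39%) from 1.5 to 3, against 3.33%, then 13 of 44 (29.5%) from 3 to 10, against 20.5%, and 28 of 39 (71.8%) above 10, against 62.3%. Promoter peaks were more often of the last kind, with 6.98% of them against 0.893% of the other WT peaks, and 22.4% against 5.25% in KO. The part of the background in the greater sharing at promoters was not tested.

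**Figure D4:**
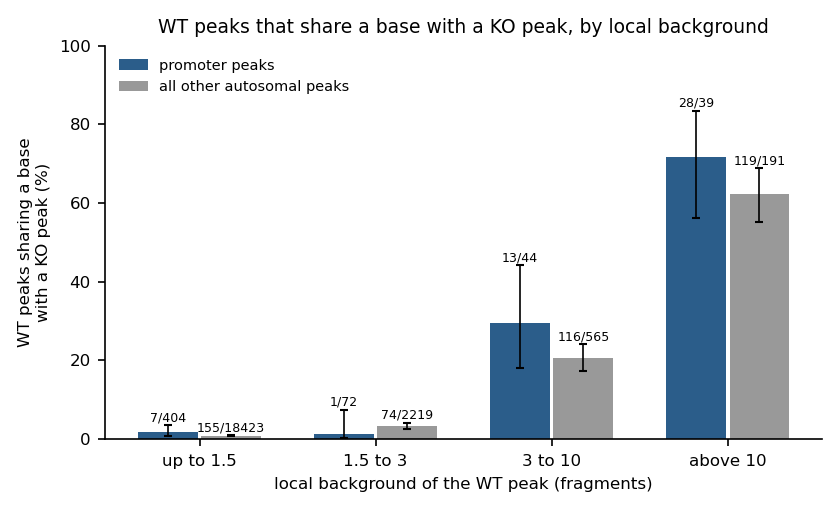
Share of WT peaks that share a base with a KO peak (y axis, percent) by local background in fragments (x axis), for promoter peaks (blue) and all other autosomal peaks (grey), with 95% Wilson intervals and counts above the bars. Both kinds rise from under 2% at the lowest background to 71.8% and 62.3% above 10 fragments.

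The tallest shared peaks formed a group of satellite-like sequence. Between 3000033 and 3038311 on chromosome 9, 12 predicted genes, Gm10106, Gm10715, Gm10716, Gm10717, Gm10718, Gm10719, Gm10720, Gm10721, Gm10722, Gm11167, Gm11168 and Gm17535, held 26 WT and 29 KO promoter peaks. All 29 KO peaks and 21 of the 26 WT peaks were shared. Every WT peak there had the pileup of 140, which was the highest of the whole WT list, and the KO pileups ran from 108 to 130, where 130 was the highest of the KO list. Backgrounds were 74.95 to 90.73 fragments in WT and 53.1 to 83.1 in KO, so fold enrichments stayed at 1.54 to 1.86 and 1.56 to 2.37. The scores were 2.67 to 6.64 in WT and 2.47 to 12.9 in KO. The highest KO scores lay at Gm10721 (12.9), Gm10719 and Gm11167 (10.1 each) and Gm10720 (9.87), then at Gm10718 (8.96), Gm10717 (8.80) and Gm10716 (8.78). The peaks covered 29.0 kb in WT and 10.7 kb in KO, and 29 WT promoter peaks in all stood at the pileup of 140, which limits what these heights can show.

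A few peaks elsewhere, on DNA of 1 to 3 copies, carried the same kind of sequence. Litaf, which encodes an endosomal membrane protein, had an intronic WT peak of pileup 140, background 49.97 and score 19.5, and a KO peak of pileup 127, background 51.7 and score 13.7, the highest KO score at a promoter. Both covered 193 common bases. Oasl1, an interferon-induced gene of the oligoadenylate synthetase family, had peaks upstream of a start with pileups of 133 in WT and 124 in KO, backgrounds of 51.3 and 52.4, and scores of 15.7 and 12.3. Ank1, the erythrocyte ankyrin gene, had intronic peaks of pileup 127 and 112 with scores of 9.60 and 8.67. The 19-base run printed in capitals for Litaf and Oasl1 was present in 25 of the 26 WT promoter peaks at the start of chromosome 9, in 28 of all 559 WT promoter peaks, in 10 of the 21398 other WT peaks and in 18 of 67194 promoter windows. Of the 12-base words of the WT peaks, 53.6% at Litaf, 39.4% at Ank1 and 36.9% at Oasl1 also occurred in the chromosome 9 promoter peaks on either strand. The same held for 39.0% at Gm10801 and 74.1% at Gm10800, a neighbouring pair of predicted genes on chromosome 2 with WT pileups of 140. Gm10801 had a KO peak too, with a pileup of 130 and a score of 5.13 against 2.70 in WT. No other WT promoter peak reached 20%, and the median was 0%. The printed letters resemble the mouse major satellite, the repeat beside centromeres, as far as is known of its sequence.

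**Figure D5:**
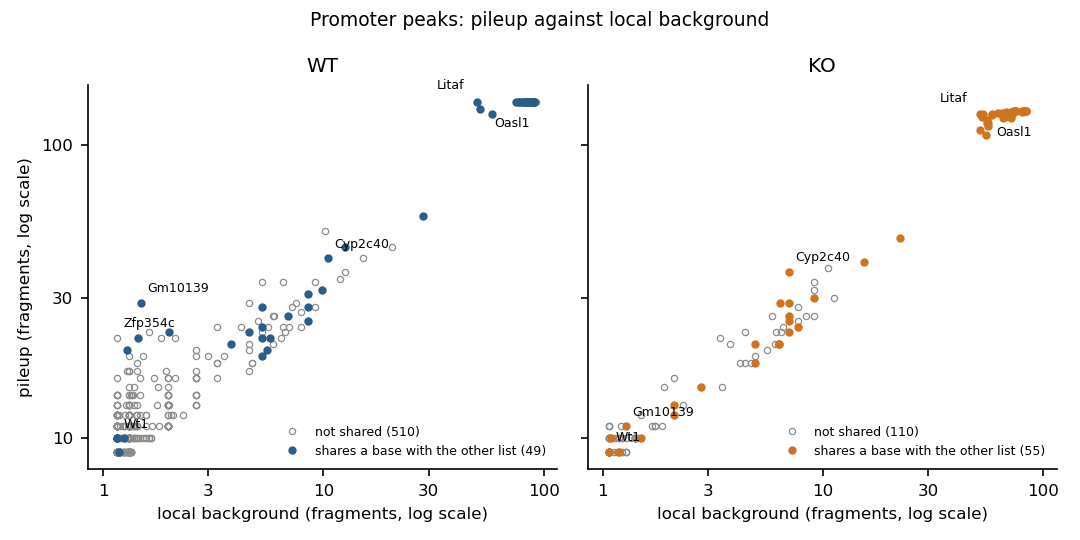
Pileup (y axis, fragments, log scale) against local background (x axis, fragments, log scale) of each promoter peak in WT and KO, with filled points for peaks that share a base with the other list. Litaf and Oasl1 sit at the upper right with the peaks of chromosome 9, and the crowd at the lower left, below a background of 1.5, is mostly open.

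Further shared promoter peaks lay in gene families of near-identical copies. Sp110 and Sp140, interferon-inducible nuclear body genes on chromosome 1, had 2 and 6 WT peaks and 3 and 9 KO peaks. Their 11 KO peaks outnumbered their 6 WT peaks, none lay on single-copy DNA, and 2 of each were shared. The highest Sp140 peaks, with scores of 5.73 in WT and 7.44 in KO, were at different places, and neither was shared. Nearby, C130026I21Rik had 3 WT and 9 KO peaks, with top scores of 3.47 and 6.83 at peaks that shared bases. A530032D15Rik had a shared pair with pileups of 21 in both lists and scores of 5.48 in WT and 4.07 in KO. Of 9 Speer genes, a rodent multicopy family, Speer4d had 1 WT and 3 KO peaks, Speer4f had a WT peak, and Speer4a and Speer4e had KO peaks. Their pileups were 18 to 29 and they shared no base. The Speer shares were 22.2% in WT (6.32 to 54.7%) and 33.3% in KO (12.1 to 64.6%), against 1.86% and 0.542% of all genes.

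Dux, the multicopy homeobox gene of the early embryo, had 5 WT peaks and 4 KO peaks on chromosome 10. Its highest shared WT peak had a pileup of 45, a background of 12.5 and a score of 7.89, and the KO partner had a pileup of 40, a background of 15.4 and a score of 3.57. The neighbours 4933403O03Rik and Gm10807 had 5 WT peaks each, and in both the lists shared bases. Gm10807 reached a score of 9.27 in WT, at a peak that shared no base with a KO peak, and 4.17 in KO. Cyp2c40, a cytochrome P450 gene, had a narrow peak with a pileup of 41 in WT and 37 in KO. Its background was 10.5 in WT and 6.99 in KO, and its score was 7.97 in WT and 11.1 in KO. Cyp2c38 had a WT peak only, with a score of 2.67. On chromosome 8, Gm1153, Gm17293 and Gm7360 had shared peaks of 8 to 10 copies, with WT scores of 5.12, 2.60 and 5.46 and KO scores of 3.54, 2.78 and 2.35.

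A few shared pairs lay on DNA of copy number 1 in both lists. Besides Wt1, Neurod1, Litaf and Ank1, these were at Coil, Sfi1, Gm336, Gm7334 and Gm17570. Coil, the marker gene of Cajal bodies, had pileups of 26 in WT and 23 in KO and scores of 4.23 and 2.76, with 68 shared bases. Sfi1, a centrosomal gene, had pileups of 57 and 48 at backgrounds of 28.3 and 22.4 and scores of 2.66 and 2.47. Gm17570 had pileups of 28 and 24 and scores of 7.57 and 2.58. Gm336 and Gm7334 had pileups of 9 or 10 in both lists, with scores of 2.70 in WT and 3.82 in KO at Gm336 and of 3.45 and 2.65 at Gm7334. Kit, the stem cell factor receptor gene, had peaks in both lists (scores 4.27 in WT and 3.88 in KO) that lay 35916 bp apart.

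Other KO promoter peaks were mostly small. Of the 110 KO promoter peaks that shared no base with a WT peak, 25 lay within 1 kb of a WT peak (22.7%) and the median gap was 9.26 kb. The WT list is far longer than the KO list, and these gaps were not computed for KO peaks outside promoters. The 110 KO peaks had a median pileup of 10 and a median score of 2.96. The highest scores among them were 7.44 at Sp140 and 6.85 at 4930572O03Rik. Of 1106 olfactory receptor genes 8 had a WT peak (0.723%, 0.367 to 1.42%, against 1.86% of all genes) and 8 others a KO peak (0.723%, an interval that holds the 0.542% of all genes). Of 321 vomeronasal receptor genes 4 had a WT peak (1.25%, 0.486 to 3.16%, against 1.86% of all genes). A KO peak was found at 5 others (1.56%, 0.667 to 3.59%, against 0.542% of all genes). All 8 olfactory KO peaks had pileups of 9 to 11, led by Olfr987 with a score of 4.86. In WT, Olfr1357 was followed by Olfr1375-ps1 (score 4.60), Olfr1396 (4.27) and Olfr93 (3.78), and Vmn2r102 had a pileup of 37 at a background of 12.5.

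Of 46 interferon response genes, Oasl1 had peaks in both lists and Ddx60, a helicase of antiviral signalling, had a WT peak with a pileup of 11 and a score of 2.98. From the study's list of genes with raised RNA in KO cells, 231 gene records were among the annotated genes and 4 had a WT promoter peak (1.73%, against 1.86% of all genes). These were Oasl1, Ddx60, Il15ra and Fmn1, and only Oasl1 had a KO promoter peak (0.433%, against 0.542% of all genes). That list was chosen on cells of the same line, so it is not independent evidence. The Il15ra peak, at the gene of the interleukin-15 receptor alpha chain, had a pileup of 17 and a score of 9.30 in WT and lay on DNA of 26598 copies. The Fmn1 peak had a pileup of 9 and a score of 2.70.

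Of 49 imprinted genes, Grb10, Igf2, Klf14 and Sfmbt2 had WT promoter peaks (8.16%, 3.22 to 19.2%, against 1.86% of all genes). All 6 of their peaks lay on single-copy DNA with pileups of 9 to 11 and scores of 2.39 to 2.70. Sfmbt2, a Polycomb gene, also had a KO peak with a pileup of 10 and a score of 3.67, at 538 bp from the nearest WT peak. It was the only imprinted gene with a KO peak (2.04%, 0.361 to 10.7%, against 0.542% of all genes). Of 45 germline genes, Sycp1, which encodes a protein of the synaptonemal complex, had a WT score of 3.45, on DNA of 3546 copies, and Fkbp6 a score of 2.39. The germline share was 4.44% in WT (1.23 to 14.8%, against 1.86% of all genes). No germline gene had a KO peak, which allows up to 6.67% of them, against 0.542% of all genes. The cell adhesion genes Pcdh15, Pcdh8, Pcdha11, Pcdhb18 and Pcdhgc5, 5 of 34 protocadherin genes (14.7%, 6.45 to 30.1%), had 8 WT peaks with pileups of 9 to 11, against 1.86% of all genes with a WT peak. None had a KO peak, which allows up to 8.82% of them, against 0.542% of all genes with a KO peak. H2-M10.1 was the only one of 36 major histocompatibility genes with a peak, in WT (2.78%, 0.492 to 14.2%, against 1.86% of all genes).

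In 10 lists no gene had a promoter peak in either library. They were the defensin (53 genes), histone (67), ribosomal protein (75), keratin-associated and cornified envelope (80), serpin (59) and Trim genes (68), the genes of H3K9 methylation and silencing (28), housekeeping genes (14) and the markers of fibroblasts (16) and of pluripotent stem cells (10). A count of 0 in these lists allows a share of up to 3.75% for the largest of them and 30% for the smallest. Of all genes, 1.86% had a WT and 0.542% a KO promoter peak. Setdb1 and Trim28 are in the silencing list. The peak lists hold no expression values, so the fibroblast label could not be checked from the markers.

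Other genes with a promoter peak in WT only follow by chromosome, in genome order. Chromosome 1 held WT peaks at Crispld1, Tcfap2b, Rims1, Rpl23a-ps1, Spats2l, Orc2, Sgpp2, Spata3, C1ql2, Tmem163, Lad1, Fmo1, Kcnj10, Aim2, Kmo and Dnahc14. On chromosome 2 the WT genes were Bend7, St8sia6, Cacna1b, Arhgap15, Tbr1, Scn2a1, Sp5, Gad1, Evx2, Zfp385b, Pla2g4e, Duox2, Slc27a2, Macrod2, Slc24a3, Insm1, Gm10770, Zfp937, Gm10749, Gm14124, Zfp345, Tox2, Wfdc11, Zfp663, Trp53rk, Atp9a and Mc3r. For chromosome 3 the names were Sec62, Ift80, Tchh, Pde4dip, Hsd3b4, Sypl2, Prss12 and Lhx8. Chromosome 4 added Prdm13, Ankrd6, Foxd3, Tmem53, Ccdc30, Rims3, Gm12888, Gm13225, Gm13235, 2610036A22Rik, Zfp600, Gm13145, Gm16503, 2610305D13Rik, Gm13157 and Hes5. Chromosome 5 held WT peaks at Gnai1, Lhfpl3, Cnpy1, C1qtnf7, Shisa3, Zfp951, Gm3209, Hfm1, A830010M20Rik, Zfp932, Gm17655, Tesc, Lhx5, Emid2, Muc3, Epo, Spdyb, Grid2ip, Gsx1 and Mtus2. On chromosome 6 the WT genes were Chn2, Il12rb2, Kdm3a, Gm5879, Olfr212, Clec4a2 and Sspn. For chromosome 7 the names were Clcn4-2, Zfp329, Eml2, Gm10351, Dbx1, Slc6a5, Atp5l-ps1, Gm2783, Gm17511 and Gm6471. Chromosome 8 added Cd209d, Zfp958, Fam155a, Arhgef7, Gm5607, Erich1, Sgcz, Adam24, Slc7a2, Klkb1, Gm7349, Anxa10, Spock3, Zfp930, D130040H23Rik, Gm10033, Gm10311, Gm7697, Gm20422, Zfp709, Ucp1, Clgn, Gm3662, Gm17316, Kctd19, Lrrc36, Jph3, BC021891 and 1700008F21Rik. Chromosome 9 held WT peaks at 4931429L15Rik, Igdcc4, M5C1000I18Rik, Foxb1, Pth1r, Trank1, Ulk4 and Zfp105. On chromosome 10 the WT genes were Phactr2, Olig3, Mtap7, Taar7a, Bves, Rfx6, Vgll2, Gm6996, Pkib, Smpdl3a, Gm4981, Pla2g12b, 1700120B22Rik, Rhobtb1, Bicc1, Gstt4, Olfr1356, Vmn2r81, Polrmt, Onecut3, Gm8112, Gm3055, Gm8264, Gm4767, Gm8137, Gm8158, Gm8290, Zfp873, Zfp938, Gm4924, Slc5a8, Tmcc3, Slc6a15, Lgr5, Gm10936 and Irak3. For chromosome 11 the names were Ikzf1, Fancl, Gm17332, Fbll1, Zfp2, Alox15, Tekt1, Skap1, Ikzf3, Zpbp2 and Gsdma2. Chromosome 12 added Gm17295, Gm3944, Zfp125, Gm10330, Gm4511, Nkx2-1, Vrtn, Pomt2, Gsc and Gm10000. Chromosome 13 held WT peaks at Gm9742, Barx1, Shc3, Zfp935, Gm17353, Gm10324, Gm16512, Gm17404, Gm17449, Gm10323, Gm10116, Gpr98 and Foxd1. On chromosome 14 the WT genes were Gm3532, Adk, Msmb, Prrxl1, Gm3573, Gm17654, 1700011H14Rik, Olfr741, Ebf2, Phyhip, Cysltr2, Slitrk1, Sox21, Gm17613 and Zic2. For chromosome 15 the names were Prlr, Aard, Kcnq3, Gm5218, Gm5805, Efcab6, Pkdrej, Odf3b and Muc19. Chromosome 16 added A630010A05Rik, Bdh1, Kpna1, Trat1, Rg9mtd1, Gm7735, Sim2 and B230307C23Rik. Chromosome 17 held WT peaks at Dynlt1a, T, Zfp97, Zfp943, Gm9772, Gm7052, Gm9805, Vmn2r115, Vmn2r117, Prss28, Gm9705, 4921501E09Rik, Olfr136, Gm16494, Satb1, Cd70, Lclat1 and Six3. On chromosome 18 the WT genes were Gm10349, Abhd3, Kctd1, Zfp35, BC023105, Atp8b1, Rax, Mbd1 and Skor2. For chromosome 19 the names were Ndufv1, BC021614, Asrgl1, Stxbp3b, Syt7, Fam111a, Fam189a2, Foxd4, Slc1a1, Rln1, Trpd52l3, Prkg1, Gm5519, Nkx2-3, Tlx1, Nutf2-ps1, 4930506M07Rik, Vax1 and Slc18a2.

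Other genes with a promoter peak in KO only follow likewise. On chromosome 1 KO peaks were at Pdc, Olfr430 and Fmn2. Chromosome 2 had Lcn6, Neb, Ppp1r1c, Olfr1137 and Gm14401 in KO. The KO list had Chi3l3 on chromosome 3. From chromosome 4 came Mup9 and Gm13152. On chromosome 5 KO peaks were at Gm9758, Gm10220 and Gm3147. Chromosome 7 had Gm4884 and Olfr702 in KO. The KO list had Gm15319, Gm14851, 6430573F11Rik, Tktl2 and Ces2c on chromosome 8. From chromosome 9 came Gpr83, AW551984, Elmod1 and Ripply2. On chromosome 10 KO peaks were at H60b, Nkain2, Phyhipl, Vmn2r80, Mybpc1, Kcnc2, Ptprr, Olfr784, Olfr798 and Vmn2r84. Chromosome 11 had 4930415F15Rik, Ccdc85a and Car10 in KO. The KO list had Gm3383, Olfr31, Gm8082, Gm8127, BC061237 and Vmn2r88 on chromosome 14. From chromosome 15 came A1bg and Nckap1l. On chromosome 16 KO peaks were at Muc4. Chromosome 17 had Gm1604b, Gm9880, Vmn1r225, Vmn1r228, Lrfn2, St6gal2, Emr4 and Dlgap1 in KO. The KO list had Ctsf, Olfr1469 and Gldc on chromosome 19. Unshared peaks in both lists were also found at Gm13247, AY761185, Gm7354 and 2410141K09Rik.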

How the data were processed

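H3K9me3 was measured by native ChIP-seq of micrococcal nuclease-digested chromatin from 1 WT and 1 KO library. Per the study's methods, the authors aligned single-end reads to mm9 with Bowtie2 2.2.3, placed a read with several hits at 1 randomly drawn site and discarded duplicates with Picard. The file headers name MACS2 2.1.0.20140616 as the peak caller. The deposited lists give for each peak the pileup (a coverage signal), the −log10 of the p-value and of the q-value, and the fold enrichment ratio over the local background. Whether the input libraries served as controls in peak calling is not given in the sources used here. Each list came from 1 library, and read totals per library were not used here, so the depth behind a peak is known only as its pileup.

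Starts came from GENCODE M1 on the mm9 assembly. Peak starts were taken as 1-based, and with 0-based starts the WT count would be 558 instead of 559. The local background was computed as (pileup + 1) / fold − 1, and only the score based on the q-value is reported. Copy number was the median genomic count of the 31-base words of a peak on both strands. Shares carry 95% Wilson intervals, and a KO-to-WT ratio has its interval converted from the interval of KO among all peaks. A count of 0 allows up to 3 counts. With 1 library per group no test was run. Python 3.11.15, numpy 2.4.6, pandas 2.3.3, scipy 1.17.1 and matplotlib 3.10.9 were used. Overlaps were checked with bedtools 2.31.1, which gave equal counts, and on simulated intervals.

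Genes with values in the text were those with shared peaks, those of the 12 highest-scoring peaks per list, those with 4 or more WT peaks and the listed genes with a peak, of which families over 10 are given by count and the 4 of highest score. Other genes are given by name, except a few that are not reported here, and the few with values outside this rule (such as Pax6, Otx2, Nodal, Kit and Lrg1) were chosen after their values were seen. The members and the gene lists were chosen with earlier results of these data known. Of the lists, 23 were general families and marker sets, 1 was the study's list of genes raised in KO, and 2 (developmental factors; Fgf and Wnt) were added after the gene names had been seen. Alternatives covered the window, the transcripts, the thresholds, the chromosomes and the overlap.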

Additional observations from a re-analysis of the deposited data

Results flagged for a closer look

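Promoter peaks on chromosomes X, Y and M lay outside the comparisons and are given here as values only. Of the 1233 WT peaks on these chromosomes 10 were promoter peaks, and of the 107 KO peaks 2 were. The WT peaks fell in the windows of 18 genes, among them the X-linked Gm14501, Gm17379, Ssxb10 and Usp51 and 13 genes of the mitochondrial genome. Both KO peaks belonged to the mitochondrial genes mt-Nd5 and mt-Nd6.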

How the results depend on the processing

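No paired analysis was possible because the WT and KO groups held only 1 library apiece. The planned requirement of a peak summit in the window was not run, since summits are not in the lists used here, and the peak centre took its place. With a 1-kb upstream window there were 353 WT and 107 KO promoter peaks (1.61% and 2.92% of the lists) and 263 WT genes. With 5 kb there were 1183 and 278 peaks (5.39% and 7.58%), 801 WT genes, 198 KO genes and 87 with both, and 6.26% of WT promoter peaks were shared. With only the outermost start of each gene the shares of the lists were 1.88% and 3.22%. At a score of at least 3 there were 320 and 78 peaks (2.9% and 5.36%), 249 WT genes, 54 KO genes and 33 with both. A pileup minimum of 15 left 117 and 76 peaks (6.65% and 11%), 74 WT genes, 38 KO genes and 32 with both, and 34.2% of WT promoter peaks were shared. Single-copy peaks alone gave 348 and 71 (5.37% and 3.42%), 67 KO genes, 16 with both and 2.87% shared. With the peak centre in the window the WT share was 2.32%. Without chromosome 9 up to 4 Mb the KO share was 3.76% and 5.25% of WT promoter peaks were shared, and when a KO peak had to cover 50% of the WT peak, 4.11% were. The other 41 values of these counts and shares stayed within 1.5 times or within their interval. The higher share of promoter peaks in KO than in WT thus turned round among single-copy peaks. Developmental factor genes with a WT peak went from 52 to 33 at a score of at least 3 and to 1 at a pileup of at least 15, and those with a KO peak from 8 to 3 with 1 kb, 3 at that score and 0 at that pileup. Listed zinc-finger genes with a WT peak went from 26 to 49 with 5 kb, 14 with the outermost start, 4 at that pileup and 15 on single-copy DNA. The 1 with a KO peak fell out at both thresholds. The causes were not tested, and the single-copy, chromosome 9 and centre settings were chosen after seeing the data. Low pileups limit the peaks that can be called, and the common ceiling of 140 in WT and 130 in KO limits the tallest.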
